A study of Homo sapiens with 12 samples.

Results

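ATP-binding cassette (ABC) transporter genes were followed as hosts of circular RNAs (circRNAs) in 2 human colorectal cancer cell lines and their derivatives resistant to 5-fluorouracil (5-Fu). The members were 34 ABC genes chosen by name, and every listed circRNA whose host is one of them was taken, with no selection on its reads. This gave 59 of 17938 listed circRNAs (0.329%), hosted by 17 of the 34 genes, among 5957 hosts in all.

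ABC transporters are membrane proteins that bind and hydrolyse ATP in a pair of nucleotide-binding domains to move substrates across a membrane. In intestinal epithelium, members of the ABCB, ABCC and ABCG families export drugs, bile acids and conjugated metabolites, and several are known for carrying anticancer drugs out of tumour cells. ABCA members mostly move lipids, ABCD members serve peroxisomes and lysosomes, and ABCE and ABCF proteins have no membrane domain. A circRNA is a closed loop made when a downstream splice donor joins an upstream acceptor of the same transcript. It is counted by reads that cross this back-splice junction, so its level need not follow that of the host's mRNA, which was not measured here.

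Total RNA depleted of rRNA was sequenced in directional libraries from sensitive (parental) HCT116, 5-Fu resistant HCT116, sensitive (parental) Lovo and 5-Fu resistant Lovo cells, with 3 libraries in each group. The resistant cells had been grown through rising 5-Fu doses from 0.1 to 2 μg/ml, and survived the last dose for at least 3 days. HCT116 was kept in DMEM and Lovo (the labels' spelling) in F12 medium, so line and medium cannot be told apart. Separate cultures per library, or separate selections of resistant cells, are not stated in the labels, so p-values reflect the spread among these libraries alone, which may be technical. A trait that a derivative gained apart from its resistance cannot be told apart from resistance.

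A library held 5654 to 10535 junction reads, and 92237 were counted in all. HCT116 libraries together held 51948 and Lovo libraries 40289. Of 17 intestinal epithelium markers, 10 hosted circRNAs with reads, 91 reads in all. EPCAM, an epithelial adhesion molecule, had 27 of them and was seen in all 4 groups, whereas 6 of the 10 (CDH1, CDH17, DSP, GPA33, LGR5 and VIL1) had 0 reads in HCT116. GPA33, LGR5 and VIL1 had just 2 reads each over all libraries. The share of all hosts with 0 reads in HCT116 was not counted. In CPM (junction reads scaled to a common library total), the summed marker level was 0 to 792 in sensitive and 227 to 1140 in resistant HCT116, and 707 to 3120 in sensitive and 538 to 1850 in resistant Lovo. Of the fibroblast, immune and endothelial markers, 1 fibroblast gene was listed, at 0 reads. In bulk RNA, fewer cells that carry a circRNA and less of it per cell cannot be told apart.

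ABC circRNAs were a sparse set. They received 220 of the 92237 junction reads (0.239%), and 16 of the 17 listed hosts had any. Of the 59 circRNAs, 55 had at least 1 read (93.2%, against 83.1% of all listed circRNAs), and 40 had at most 3. The median was 3 reads, as in the whole table, but the highest was 21 against 611, and 601 other circRNAs had more than 21. A total of 33 ABC circRNAs were seen in exactly 1 library and 1 was seen in 8. Among circRNAs with at least 2 reads, 29 of 51 ABC circRNAs (56.9%) came from a single library, against 50.0% of all.

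In structure the ABC circRNAs were mostly exonic. The authors' class was exonic for 54 (91.5%, against 78.8% of all), sense overlapping for 4 (6.78% against 14.9%) and intronic for 1 (1.69% against 5.93%). The predicted sequence of the exonic ones had a median of 672 bases (194 to 2407), against 571 in the whole table. The genomic span between the joined ends had a median of 10836 bases against 9961. A circBase identifier was listed for 38 (64.4%, against 62.3%). ABC hosts had a median of 1 circRNA against 2 for all hosts, and 9 of 17 (52.9%, against 43.5%) hosted exactly 1.

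Few ABC circRNAs were seen in both lines. Of the 55 with reads, 28 were seen only in HCT116 (50.9%, against 39.7% of all circRNAs with reads). A further 18 were seen only in Lovo (32.7%, against 27.3%), and 9 in both (16.4%, against 33.0%). These shares are a description of sparse counts, and the part of depth in them was not tested.

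Summed over all members, the share of junction reads did not separate the 4 groups. Sensitive HCT116 libraries had 12, 19 and 37 ABC reads and resistant HCT116 libraries 25, 18 and 19. Sensitive Lovo libraries had 21, 8 and 13 and resistant Lovo libraries 9, 12 and 27. As a share of the library this was 0.253% ± 0.0859 (SD, n = 3) in sensitive and 0.234% ± 0.0229 in resistant HCT116, and 0.226% ± 0.088 in sensitive and 0.218% ± 0.128 in resistant Lovo. The groups overlapped throughout, with the lowest library (0.119%) and the highest (0.363%) both in resistant Lovo.

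The ratio of pooled shares, resistant over sensitive, was 0.886 in HCT116 (exact conditional binomial 95% interval 0.618 to 1.27) and 0.950 in Lovo (0.615 to 1.47). HCT116 over Lovo was 1.16 in the sensitive cells (0.776 to 1.74) and 1.08 in the resistant cells (0.728 to 1.61), or 1.63 without resistant Lovo replicate 3 (0.981 to 2.82). All of these intervals hold 1. They and the intervals below cover counting error only, not the spread between libraries, and copies of 1 molecule made by PCR would be counted apart. A library showed 8.67 ± 3.51 ABC circRNAs in sensitive and 10.0 ± 0.0 in resistant HCT116, and 7.0 ± 2.0 in sensitive and 7.67 ± 2.89 in resistant Lovo (mean ± SD, n = 3). Thinned to 5654 reads each, the libraries showed 7.33 ± 2.36, 8.06 ± 0.653, 6.82 ± 1.86 and 6.85 ± 2.72 in the same order.

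**Figure D1:**
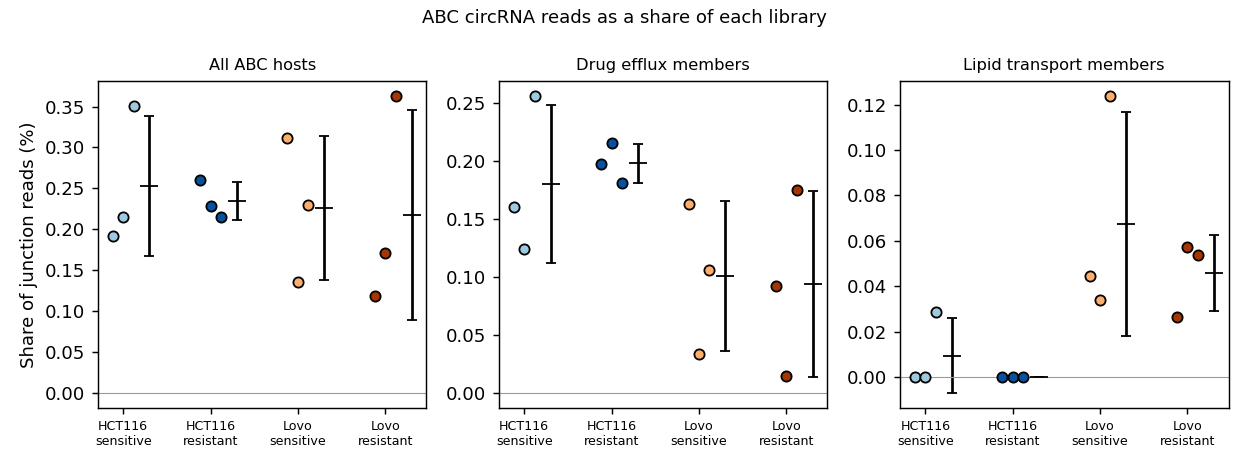
Share of all junction reads in each library (percent, vertical axis) for all ABC circRNAs, those of the drug efflux hosts and those of the lipid transport hosts, in the 4 groups; points are libraries and bars are mean ± SD (n = 3). The groups overlap for all ABC circRNAs. Drug efflux hosts have 100 reads in HCT116 and 40 in Lovo, a ratio of 1.94 after scaling by depth. Lipid transport hosts have 3 reads in HCT116 and 22 in Lovo. For both sets the library ranges of the lines overlap.

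Across the table, 300 circRNAs (1.67%) had enough reads for an edgeR quasi-likelihood test, and none of the 59 ABC circRNAs was among them. After the reads of all circRNAs of a host were summed, 580 hosts (9.74%) could be tested, 3 of them members: ABCC1, ABCC4 and ABCD3. No member passed an adjusted p of 0.05 in any comparison, with edgeR, DESeq2 or limma-voom. In HCT116, resistant against sensitive, edgeR called 0.517% of all hosts tested (3 of 580). At an unadjusted p under 0.05 were 37 of the 580 hosts and 0 of the 3 members. In Lovo it called 0% (0 of 580, with 28 at an unadjusted p under 0.05, and 0 by DESeq2 and by limma-voom), with 0 members under the unadjusted threshold. For the difference between these effects it called 0% (38 hosts at an unadjusted p under 0.05, 0 called by DESeq2 and 1 by limma-voom), with 1 member, ABCC1, under the unadjusted threshold. ABCC1 passed the count filter through resistant HCT116 and sensitive Lovo libraries, where its reads were high. Its p is therefore no separate support for a difference.

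Between the lines more hosts differed, and still no member was called. Sensitive HCT116 against sensitive Lovo gave 10% (58 of 580). At an unadjusted p under 0.05 were 133 of all 580 hosts and 1 of the 3 members, ABCC4. This member passed the count filter through its HCT116 libraries, where it was high, so its p is no separate support for a difference. Resistant HCT116 against resistant Lovo gave 11.9% (69), with 128 hosts under the unadjusted threshold, among them 1 member, ABCC1. The limit given above for the p of ABCC1 holds here too. Over both states HCT116 against Lovo gave 20% (116), with 197 hosts and 0 members under the unadjusted threshold. Comparisons that involve the same group share its libraries and are not independent of each other.

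**Figure D2:**
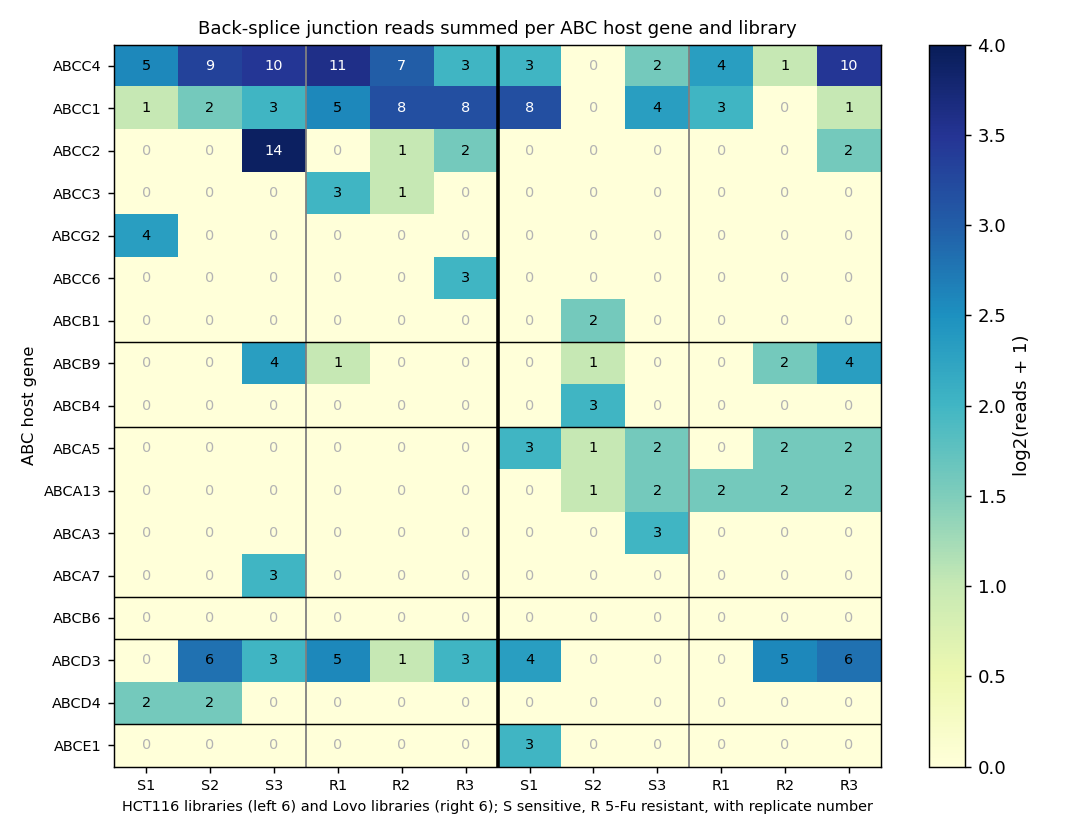
Junction reads of each listed ABC host (rows, ordered by role) in each of the 12 libraries (columns, by group); the number and colour of a cell give the reads. ABCC4, ABCC1 and ABCD3 have reads in 11, 10 and 8 libraries, ABCA5 and ABCA13 have reads in Lovo only, and most other hosts have reads in 1 or 2 libraries.

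Drug efflux transporters held most of the ABC reads. Of 9 such genes 7 were listed, with 36 circRNAs and 140 reads (63.6% of the ABC reads). HCT116 had 100 of these reads and Lovo 40. The level per library ranged from 1240 to 2560 CPM with a median of 1890 in HCT116, and from 143 to 1750 with a median of 993 in Lovo. HCT116 libraries were mostly the higher ones, and the ranges overlapped. Scaled by depth, HCT116 had 1.94 times the level of Lovo (95% interval 1.33 to 2.87), with 1.80 (1.04 to 3.25) in the sensitive cells and 2.07 (1.22 to 3.61) in the resistant cells. With 1 library left out, the ratio over both states ranged from 1.64 to 2.34. Within a state the ratio rested more on single libraries. In the sensitive cells it ranged from 1.34 (0.686 to 2.64), without sensitive HCT116 replicate 3, to 2.71 (1.27 to 6.62), without sensitive Lovo replicate 1. The interval also held 1 without sensitive Lovo replicate 2 (1.37, 0.772 to 2.53) or 3 (1.82, 0.971 to 3.67). In the resistant cells it ranged from 1.48 (0.869 to 2.62), without resistant Lovo replicate 2, to 3.59 (1.70 to 8.76), without resistant Lovo replicate 3. Resistant over sensitive was 1.05 in HCT116 (0.698 to 1.59), or 0.895 to 1.42 with 1 library left out, the lowest without sensitive replicate 2. In Lovo it was 0.919 (0.47 to 1.81). This was 0.529 without resistant replicate 3, 1.28 without resistant replicate 2 and 1.38 without sensitive replicate 1, so its direction turned with the library left out.

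ABCC4 (MRP4), which exports cyclic nucleotides and nucleoside monophosphate analogues, was the ABC host with the most reads, 65 over 15 listed circRNAs. Still, 252 other hosts in the table had more. Its reads were 5, 9 and 10 in sensitive and 11, 7 and 3 in resistant HCT116, and 3, 0 and 2 in sensitive and 4, 1 and 10 in resistant Lovo. Every sensitive HCT116 library lay above every sensitive Lovo library, and the resistant groups overlapped. The share of all tested hosts with such an order was not counted. The level was 975 ± 154 CPM (SD, n = 3, after TMM scaling, edgeR's correction for library composition) in sensitive HCT116 and 256 ± 227 in sensitive Lovo. This log2 fold change of 1.87 ± 0.89 (SE) had an adjusted p of 0.186 by edgeR's quasi-likelihood test. The resistant cells had 837 ± 451 CPM in HCT116 and 666 ± 628 in Lovo, a log2 difference of 0.33 ± 0.77 (edgeR adjusted p 0.874). Resistant against sensitive was -0.23 ± 0.74 in HCT116 (edgeR adjusted p 0.959) and 1.31 ± 0.93 in Lovo (0.911).

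The ABCC4 reads came from many circles that shared ends. Its most counted circRNA, hsa_circ_0030586, joins position 95840796 to 95813443 on the minus strand of chromosome 13 (build hg19), with a predicted exonic sequence of 1192 bases. It had 2, 5 and 5 reads in sensitive and 0, 2 and 1 in resistant HCT116, and 0, 0 and 2 in sensitive and 1, 0 and 3 in resistant Lovo. With 12 reads in sensitive and 3 in resistant HCT116 it was 4.11-fold lower in the resistant cells by pooled reads (95% interval 1.11 to 22.7), and libraries of the groups touched at 2 reads. The circRNA did not reach the expression filter. With no filter on low counts, edgeR gave it a log2 change of -1.88 with an adjusted p of 0.668. Its upstream end at 95840796 was used by 5 listed circRNAs with 35 reads, and the downstream end at 95829961 by 4 with 10 reads. The ABC circRNA with the widest genomic span, hsa_circ_0030582, uses the same upstream end and reaches 72621 bases down to 95768176, with a predicted sequence of 1272 bases. Its 7 reads were spread over 5 libraries: 2 and 1 in sensitive HCT116, 1 in resistant HCT116, and 1 and 2 in resistant Lovo. Other ABCC4 circles were counted mostly in a single library. Thus hsa_circ_0101017 had all 5 of its reads in resistant HCT116 replicate 1. Likewise hsa_circ_0008463, from 95686859 to 95715113, had 5 of its 6 reads in resistant Lovo replicate 3 and the other in resistant Lovo replicate 1.

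ABCC1 (MRP1), which exports glutathione and glucuronide conjugates and several anticancer drugs, had 43 reads over 12 circRNAs. They numbered 1, 2 and 3 in sensitive HCT116 and 5, 8 and 8 in resistant HCT116. In Lovo they were 8, 0 and 4 in sensitive and 3, 0 and 1 in resistant cells. All 3 resistant HCT116 libraries lay above all 3 sensitive ones, while the Lovo groups overlapped and each had a library at 0. With 3 libraries a group, such an order can arise without a difference. How many of the 580 tested hosts show it was not counted.

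The ABCC1 level was 238 ± 77.4 CPM in sensitive and 850 ± 253 in resistant HCT116 (SD, n = 3), and 608 ± 578 in sensitive and 172 ± 193 in resistant Lovo. The log2 fold change, resistant over sensitive, was 1.73 ± 1.03 in HCT116 (edgeR adjusted p 0.761) and -1.72 ± 1.13 in Lovo (0.904). The difference between these effects was 3.45 ± 1.54 on the log2 scale, with an unadjusted p of 0.0249 and an adjusted p of 0.578 in edgeR. These p-values are no separate support, because ABCC1 passed the count filter through the 2 groups where it was high. Between the resistant cells, HCT116 over Lovo was 2.18 ± 1.09 (edgeR adjusted p 0.213), and between the sensitive cells -1.27 ± 1.08 (0.477). With 1 library left out, the difference of effects ranged from 2.59 (without sensitive Lovo replicate 1) to 4.63 (without resistant Lovo replicate 1). The change between the resistant lines ranged from 1.57 (without resistant Lovo replicate 2) to 3.37 (without resistant Lovo replicate 1), and that between the sensitive lines from -1.86 (without sensitive Lovo replicate 2) to -0.47 (without sensitive Lovo replicate 1). By pooled reads, ABCC1 was 3.40 times as high in resistant as in sensitive HCT116 (95% interval 1.33 to 10.3) and 3.61-fold lower in resistant than in sensitive Lovo (1.09 to 15.4). The Lovo ratio of pooled reads, 0.277, was 0.188 without sensitive replicate 2 (0.0441 to 0.62) and 0.106 without resistant replicate 1 (0.00247 to 0.714). Its interval held 1 without sensitive replicate 1 (0.525, 0.0978 to 2.82) or sensitive replicate 3 (0.287, 0.0633 to 1.07). It also held 1 without resistant replicate 2 (0.406, 0.0955 to 1.34) or resistant replicate 3 (0.314, 0.0569 to 1.16). The intervals of pooled reads leave out the spread between libraries, which the edgeR test includes.

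The circles that carried ABCC1 reads varied between libraries. In resistant HCT116, replicate 1 had 5 reads on 2 circRNAs, replicate 2 had 8 on 4, and replicate 3 had 8 on 2, of which 7 fell on hsa_circ_0038111. This circRNA spans 16146581 to 16150152 on the plus strand of chromosome 16, with a predicted sequence of 297 bases. Its reads were 0 in each sensitive library and 0, 0 and 7 in the resistant libraries of HCT116, and 4, 0 and 3 in sensitive and 0, 0 and 1 in resistant Lovo. So 1 library supplied all of its HCT116 reads. The downstream end at 16150152 was shared by 3 circRNAs with 18 reads, and that at 16130460 by 3 with 10.

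**Figure D3:**
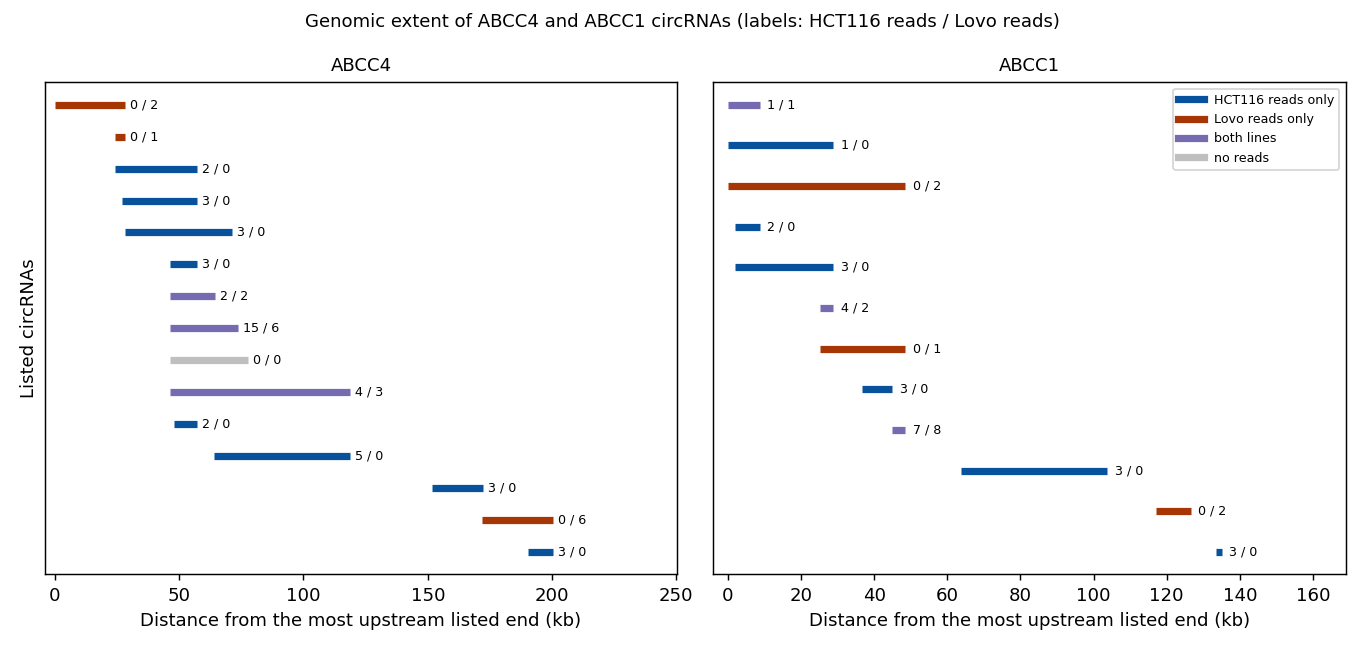
Extents of the listed circRNAs of ABCC4 and ABCC1 as bars, in kb from the most upstream listed end of each host (horizontal axis), each labelled with its reads in HCT116 and in Lovo. Several circles start or stop at the same ends, and the most counted one has 21 reads in ABCC4 and 15 in ABCC1.

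ABCC2 (MRP2), an exporter of conjugates at the apical membrane, had 19 reads over 5 circRNAs, and 14 of them were in sensitive HCT116 replicate 3. The other sensitive HCT116 libraries had 0, resistant HCT116 libraries 0, 1 and 2, all sensitive Lovo libraries 0 and resistant Lovo libraries 0, 0 and 2. A single library thus set the ABCC2 level of its group. By pooled reads ABCC2 was 4.80-fold lower in resistant than in sensitive HCT116 (95% interval 1.34 to 26.0), and without sensitive HCT116 replicate 3 the sensitive group was at 0. HCT116 over Lovo was 6.59 over both states (1.56 to 58.8), and 1.46 without that library. ABCC2 missed the expression filter, and with no filter edgeR gave adjusted p = 0.747 for the first and 0.458 for the second of these comparisons. Its most counted circRNA, from 101591368 to 101606884 on the plus strand of chromosome 10 and with no circBase identifier listed, had 10 reads in that library and 1 in resistant HCT116 replicate 3.

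The remaining drug efflux hosts were each seen in at most 2 libraries. ABCC3 (MRP3), a basolateral exporter of organic anions, had 3 reads in resistant HCT116 replicate 1 and 1 in replicate 2, all on an intronic circRNA. ABCG2 (BCRP), an exporter of many drugs and of urate, had 4 reads in sensitive HCT116 replicate 1. ABCB1 (P-glycoprotein), the best known multidrug exporter, had 2 reads in sensitive Lovo replicate 2. ABCC6, mutated in pseudoxanthoma elasticum, had 3 reads in resistant HCT116 replicate 3, and its assignment is uncertain because near-identical pseudogene copies lie near it. ABCC5, known to export monophosphate metabolites of fluoropyrimidines, and ABCC10 hosted no listed circRNA. A count of 0 over a group allows up to 117.1, 113.9, 164.0 and 136.4 CPM in sensitive HCT116, resistant HCT116, sensitive Lovo and resistant Lovo, from the limit of 3 reads. Levels of these hosts were therefore at or near what could be detected.

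Lipid transport members were seen mostly in Lovo. Of 10 such genes 4 were listed, with 8 circRNAs and 25 reads, 3 in HCT116 and 22 in Lovo. Lovo libraries ranged from 264 to 1240 CPM with a median of 491, and HCT116 libraries from 0 to 285 with a median of 0. All Lovo libraries had reads. In HCT116 sensitive replicate 3 alone did, with 3 reads of ABCA7, slightly above the lowest Lovo library. By pooled reads over both states the level was 9.46-fold lower in HCT116 (95% interval 2.84 to 49.3). In the sensitive cells HCT116 over Lovo was 0.179 (0.0323 to 0.662). That interval held 1 without sensitive HCT116 replicate 2 (0.273, 0.0494 to 1.01) or sensitive Lovo replicate 3 (0.296, 0.046 to 1.52). In the resistant cells HCT116 had 0 reads against 10 in Lovo, at least 3.99-fold lower against the limit of 3 reads.

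ABCA5, a lysosomal member linked to cholesterol handling, had 3, 1 and 2 reads in sensitive Lovo, 0, 2 and 2 in resistant Lovo and 0 in all 6 HCT116 libraries. ABCA13, among the largest ABC proteins, had 0, 1 and 2 reads in sensitive Lovo, 2 in each resistant Lovo library and 0 in all 6 HCT116 libraries. For each gene, 5 of 6 Lovo libraries had reads. Against the limit of 3 reads over the 6 HCT116 libraries, ABCA5 was at least 4.30-fold and ABCA13 at least 3.87-fold lower in HCT116. Reads in Lovo alone were common: 27.3% of all circRNAs with reads were seen only there, as were 32.7% of the ABC circRNAs. The share of all hosts seen only in Lovo was not counted. ABCA5 and ABCA13 both missed the expression filter. With no filter on low counts, edgeR gave adjusted p = 0.208 for ABCA5 and 0.265 for ABCA13 over both states. ABCA3, which loads surfactant lipids into lamellar bodies, had 3 reads in sensitive Lovo replicate 3. ABCA7, a phospholipid transporter, had 3 reads in sensitive HCT116 replicate 3. ABCA1, ABCA2, ABCA8, ABCA10, ABCA12 and ABCG1 hosted no listed circRNA.

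ABCD3 (PMP70), which imports branched-chain fatty acyl-CoA into peroxisomes, had 33 reads over 6 circRNAs. They were 0, 6 and 3 in sensitive and 5, 1 and 3 in resistant HCT116, and 4, 0 and 0 in sensitive and 0, 5 and 6 in resistant Lovo. All groups overlapped, and 3 of the 4 had a library at 0. The level was 345 ± 361 CPM in sensitive and 349 ± 217 in resistant HCT116, and 192 ± 332 in sensitive and 492 ± 433 in resistant Lovo (SD, n = 3). Resistant over sensitive was -0.02 ± 1.18 on the log2 scale in HCT116 (edgeR adjusted p 1) and 1.22 ± 1.33 in Lovo (0.996). With 1 library left out the Lovo value ranged from 0.71 to 4.99, the highest without sensitive replicate 1, the only sensitive Lovo library with ABCD3 reads.

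Its most counted circRNA, hsa_circ_0013235, spans 94953098 to 94956803 on the plus strand of chromosome 1, with a predicted sequence of 489 bases. Of its 13 reads, 10 were in resistant Lovo (0, 4 and 6), 1 in sensitive Lovo and 2 in sensitive HCT116. By pooled reads resistant Lovo had 8.31 times the level of sensitive Lovo (95% interval 1.18 to 361), and the groups overlapped at 0. With no filter on low counts, edgeR gave this difference an adjusted p of 0.855. The same downstream end, 94956803, also closed a larger circle from 94924163, with 2 reads in sensitive and 1 in resistant HCT116, and 3 in sensitive and 1 in resistant Lovo. Lovo had reads on just these 2 of the 6 ABCD3 circRNAs, whereas the other 4, which end at 94946162 or 94948795, had reads in HCT116 alone. Those 4 had 2 to 4 reads each. Of all circRNAs with reads, 39.7% were seen only in HCT116, as were 50.9% of the ABC circRNAs. The part of depth in this was not tested. The upstream end at 94924163 was used by 3 ABCD3 circRNAs with 15 reads. ABCD4, which serves lysosomal release of cobalamin, had 2 reads in each of sensitive HCT116 replicates 1 and 2 and 0 elsewhere. ABCD2 hosted no listed circRNA.

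**Figure D4:**
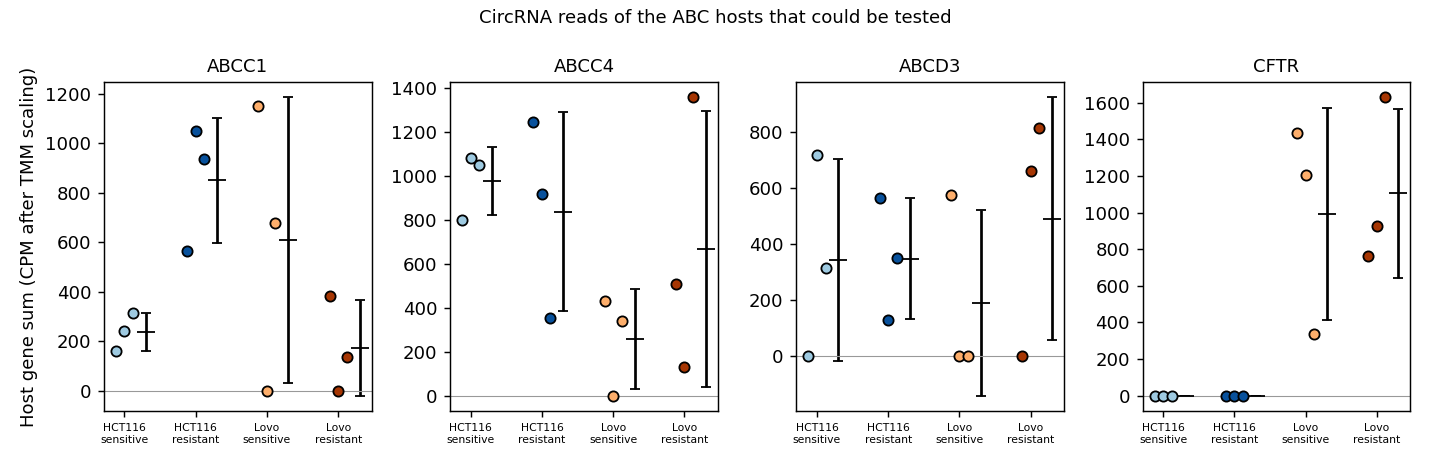
CPM of junction reads after TMM scaling (vertical axis) of the tested hosts ABCC1, ABCC4 and ABCD3 and of CFTR in the 4 groups; points are libraries and bars are mean ± SD (n = 3). ABCC1 separates resistant from sensitive HCT116 without passing the test, and CFTR is at 0 in all 6 HCT116 libraries and present in all 6 Lovo libraries. The share of all tested hosts that separate in these ways was not counted.

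Other members gave few reads. ABCB9, a lysosomal peptide transporter, had 12 reads over 4 circRNAs: 0, 0 and 4 in sensitive and 1, 0 and 0 in resistant HCT116, and 0, 1 and 0 in sensitive and 0, 2 and 4 in resistant Lovo. The groups overlapped at 0. ABCB4, which moves phosphatidylcholine into bile, had 3 reads in sensitive Lovo replicate 2, and ABCE1, a ribosome recycling factor, had 3 in sensitive Lovo replicate 1. ABCB6, a porphyrin-linked transporter, was listed with 0 reads. ABCB8, ABCB10, ABCB11, ABCC8, ABCC9, ABCF1, ABCF2 and ABCF3 hosted no listed circRNA.

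Among 14 further ABC genes outside the members, 2 were listed. CFTR, the chloride channel of epithelia and an ABCC family protein, hosted 17 circRNAs with 45 reads, all in Lovo. Its reads were 10, 8 and 2 in sensitive Lovo, 6, 7 and 12 in resistant Lovo and 0 in each HCT116 library, so the lines did not overlap. CFTR passed the count filter through its Lovo reads alone and was picked after its values were seen. Its p-values are therefore no separate support for the difference. Of all hosts tested, 10% were called between the sensitive lines, 11.9% between the resistant lines and 20% over both states. How many tested hosts do not overlap between the lines was not counted. CFTR was lower in HCT116 in edgeR's test, with adjusted p = 0.00201 in sensitive cells, 0.000922 in resistant cells and 4.78e-07 over both states. Against the limit of 3 reads per group of libraries, it was at least 9.33-fold, 9.98-fold and 19.3-fold lower. Resistant over sensitive Lovo was 0.13 ± 0.86 on the log2 scale (edgeR adjusted p 1). The most counted CFTR circRNA, from 117170953 to 117199709 on the plus strand of chromosome 7, had 10 of the 45 reads. ABCC11, known to export a fluoropyrimidine nucleotide, was listed with 0 reads. The epithelium markers together had 12 reads in sensitive and 18 in resistant HCT116, and 31 in sensitive and 30 in resistant Lovo. Of the 10 with reads, 6 were at 0 in HCT116 as CFTR was, while EPCAM had 6 reads in sensitive and 13 in resistant HCT116 against 4 in each Lovo group, and DSG2 had its 2 reads in HCT116. Their part in the CFTR difference was not tested.

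Of 32 genes that regulate or partner ABC transporters, 17 were listed, all with reads, and 2 could be tested. FOXO1, a forkhead transcription factor, had 1, 0 and 1 reads in sensitive and 9, 5 and 2 in resistant HCT116, and 8, 9 and 6 in sensitive and 11, 11 and 7 in resistant Lovo. Sensitive HCT116 lay below every other group, and the share of all tested hosts with such an order was not counted. FOXO1 passed the count filter through its Lovo libraries, where it was high, and was picked after its values were seen. Its p-values between the lines are therefore no separate support for a difference. FOXO1 was lower in sensitive HCT116 than in sensitive Lovo by a log2 value of -3.58 ± 0.99 (edgeR adjusted p 0.0053). That call was lost without the count filter (edgeR adjusted p 0.0607) and without sensitive HCT116 replicate 2 (0.0502). Between the resistant lines FOXO1 was -0.97 ± 0.72 (edgeR adjusted p 0.492). Over both states, a comparison chosen after seeing the data, FOXO1 was -2.28 ± 0.62 (edgeR adjusted p 0.00218). Resistant over sensitive HCT116 was 2.71 ± 1.03 (edgeR adjusted p 0.462). PPARG, a lipid-sensing nuclear receptor, had an adjusted p of 0.126 over both states in edgeR, at -1.24 ± 0.59.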

How the data were processed

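Per the file headers, the authors deposited raw junction read counts for each circRNA in each library, not normalized. Their table adds position, strand, host gene, class and predicted length. The submitters' processing notes name build hg19 and the tools cutadapt 1.9.3, STAR 2.5.1b and edgeR 3.16.5, without saying what each did. Neither the circRNA caller nor its listing threshold is given in the sources used here. A line of the table was not analysed here.

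Positions are 1-based. Host sums add all circRNAs of a gene. All 12 libraries entered 1 edgeR 4.0.16 fit (R 4.3.3) on counts: TMM, filterByExpr with a minimum count of 5 and total of 15, then glmQLFit and glmQLFTest. P-values were adjusted by Benjamini-Hochberg over all features tested, with a threshold of 0.05. DESeq2 1.42.0 and limma 3.58.1 (voom) were alternatives. The edgeR code alone was run on simulated counts with a fixed spread and many changed features. These differ from the real data, so the run is no check of the calls here. The standard error is the log2 change divided by the root of its F statistic. Ratios of pooled reads are scaled by total reads. Members, lists and tests were chosen with earlier results of these data known. The comparison over both states, and leaving out libraries for host and role sums, were chosen after seeing the data. Hosts were named if tested, among the 10 members with most reads, or drug exporters, and circRNAs if tested or at 20 reads. Other circRNAs and hosts named, FOXO1 and CFTR included, were chosen after their values were seen.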

Additional observations from a re-analysis of the deposited data

How the results depend on the processing

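No member was called under any alternative: another normalization or tool, another count filter or none, the replicate block, or leaving out each library. The log2 changes of the tested hosts changed sign in these cases. ABCD3, resistant against sensitive HCT116 (-0.02), was 0.32 with limma-voom, 0.016 with the replicate block, and -0.52 to 0.94 with a library left out. For resistant HCT116 against resistant Lovo it was 0.17 with limma-voom and -1.03 to 0.031 with a library left out. With a library left out it was also -0.16 to 4.50 between the sensitive lines and -0.30 to 1.99 over both states. ABCC4 ranged from -0.64 to 0.14 for resistant against sensitive HCT116 and from -0.22 to 1.26 between the resistant lines. Without a sign change, it ranged from 0.34 to 1.92 for resistant against sensitive Lovo and from 1.29 to 2.43 between the sensitive lines, and ABCC1 from -2.91 to -0.88 for resistant against sensitive Lovo. The cause was not tested. Summed ABC reads, with a library left out, gave ratios of 0.806 to 1.14 (resistant against sensitive HCT116), 0.628 to 1.20 (Lovo), 0.896 to 1.46 (sensitive lines), 0.871 to 1.63 (resistant lines) and 1.01 to 1.30 (both states), the highest of them without resistant Lovo replicate 3 (1.63).

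No pairing by replicate number was seen in the tested hosts. Departures of log CPM from the group mean correlated at -0.0392 to 0.0739 between same-numbered libraries of different groups, over 12 pairs. With few reads per host, counting error can hide a shared culture or day, so this check cannot decide whether the libraries were paired. With the replicate block, ABCD3 in HCT116 was 0.016, and no member call changed.

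Over all hosts, the number called ranged from 2 to 5 (resistant against sensitive HCT116), 0 to 1 (Lovo), 0 to 2 (difference), 28 to 62 (sensitive lines), 40 to 74 (resistant lines) and 84 to 132 (both states). For circRNAs the ranges were 1 to 6, 0 to 1, 0 to 3, 14 to 47, 20 to 57 and 44 to 94. CFTR stayed called between the lines under every alternative. It was picked after its values were seen and passed the count filter through its Lovo reads alone. Refits of the same counts are therefore no separate support for its difference. With a minimum count of 10, 0 members could be tested. Depth limits every ABC value: a library's limit for a count of 0 was 284.8 to 530.6 CPM.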
